A study of Mus musculus with 6 samples.

Results

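The genes of the eukaryotic translation initiation factors eIF1 to eIF6 were compared between hematopoietic stem cells (HSCs) with high and with low surface MHC class II, labelled MHCII_hi and MHCII_lo. All gene names that start with Eif1 to Eif6 were taken, leaving out the eIF2 kinases (Eif2ak), the Y-linked Eif2s3y and names marked as pseudogenes, which gave 51 of the 30803 genes in the tables. RNA-seq libraries were made from HSCs sorted from the bone marrow of wild-type (WT) mice aged 12 months, 3 libraries from MHCII_hi cells and 3 from MHCII_lo cells, and no allele or agent was named for either group. Gates, animal numbers and the origin of each library (own animal, shared pool or repeat) are not stated in the labels. A p-value here therefore covers the spread among these libraries alone, and that spread may be technical. Expression is given as FPKM, the fragments of a gene per transcript length, relative to all mapped fragments of its library, and this unit was inferred from the tables.

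Initiation factors bring the small ribosomal subunit, the initiator tRNA and the mRNA together and place the ribosome on a start codon. eIF2 carries the initiator tRNA and is recharged by eIF2B, eIF3 is the large scaffold on the small subunit, and eIF1 and eIF1A keep the scanning ribosome open until the start codon is found. The cap-binding complex of eIF4E, eIF4G and the helicase eIF4A loads the mRNA and is held back by the 4E-binding proteins, which the kinase mTORC1 releases. eIF5 and eIF5B complete the joining of the subunits. HSCs are known to make protein at a lower rate than most other blood-forming cells.

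Within a group, libraries correlated at 0.991 to 0.993 (Pearson's r over log2 values, across genes, which are not independent replicates), and between groups at 0.945 to 0.947; depth is unknown. The 4 genes taken to check the sort, Cd74 and the class II chains H2-Eb1, H2-Ab1 and H2-Aa, were all higher in MHCII_hi. Defining HSC genes were low in both groups: Procr averaged 0.543 FPKM in MHCII_hi and 0.170 FPKM in MHCII_lo, and Slamf1, Mecom, Fgd5 and Hoxb5 averaged under 1 FPKM in both, while Kit averaged 13.9 FPKM in MHCII_hi and 14.3 FPKM in MHCII_lo. All 15 neutrophil markers were detected and together held 16.36 to 16.43% of the summed FPKM in MHCII_hi libraries, against 3.62 to 3.66% in MHCII_lo libraries; 14 were higher in MHCII_hi, and Lyz2 was lower. Erythroid markers held 0.0693 to 0.0717% of summed FPKM in MHCII_hi and 0.128 to 0.132% in MHCII_lo, with 8 of 9 lower. Dendritic cell and monocyte markers held 0.0792 to 0.0805% in MHCII_hi and 0.1299 to 0.133% in MHCII_lo, with 7 of 8 lower. The other was Cd74, also a sort check gene, which was higher. Plasma cell markers held 0.0921 to 0.0939% in MHCII_hi and 0.0765 to 0.0776% in MHCII_lo, with 3 of 6 higher and 0 lower. B cell markers held 0.00472 to 0.00492% in MHCII_hi and 0.00392 to 0.00447% in MHCII_lo. Of these 7, 1 was higher, 0 lower and 5 untested. A scaled value falls when other genes take more of a library, so the neutrophil share moves with every result below, and the part of these cell types in them was not tested. In bulk samples, fewer cells of a type and less RNA per cell cannot be told apart.

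Starts of 6 genes that were lower and 2 that were higher in MHCII_hi under every scaling described below are shown first, because mRNAs of the translation machinery often begin with a run of C and T (a terminal oligopyrimidine tract), which mTORC1 reads through LARP1. RefSeq promoters on GRCm38.p6 were matched for 39 of the 51 genes. Each line below runs 5′ to 3′ from 20 bases before to 10 after the annotated start, with the longest run of C and T in capitals where it has at least 5 letters. The first 6 genes were lower in MHCII_hi and the last 2 higher, and Eif4g3 has 2 annotated starts, of which the upstream one is shown.
Eif4b, chr15:102073753-102073782, plus strand: gcgcaggTCTTCCCgtcggacgccgcgcca
Eif2a, chr3:58525801-58525830, plus strand: cggaagtgtggactccgcccgctccggaga
Eif3f, chr7:108934395-108934424, plus strand: gctcttctgttctaggCTCTCTCTCTTTCT
Eif3m, chr2:105017018-105017047, minus strand: CTCTCTTTTCCggtcggcgtgtttctggat
Eif3k, chr7:28981879-28981908, minus strand: aaaaaaaaacaaccggcgctggtgctgaaa
Eif1ax, chrX:159372158-159372187, plus strand: gcggggaggaggaggagggcggggagaagc
Eif1, chr11:100319929-100319958, plus strand: gcagcgcgctggcgtcacaggggcggctat
Eif4g3, chr4:137993435-137993464, plus strand: gccgaaaagctccgagcggccgtcctgccg

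A run of at least 8 C or T letters in that window, read on the gene's own strand, was present in 7 of the 39 matched genes (17.9%), against 14.5% of all 27025 genes in the table and 15.5% of the 8334 tested genes in it. These 7 were Eif2b5, Eif2s3x, Eif3f, Eif3l, Eif3m, Eif4e and Eif4enif1. Their median log2 fold change was −0.20, against −0.15 for the 30 tested members without such a run. Over all tested genes the medians were −0.098 with the run and −0.12 without it. The share in the members was near that of all genes, and the run was looked for after the values were seen. A run counted anywhere in the window, so it may lie before the annotated start and outside the mRNA. The runs printed for Eif3m and Eif4b lie wholly before the annotated start, and that of Eif4b, at 7 letters, was too short to be counted.

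Promoters from 250 bases before to 50 after the start were also searched on both strands for 3 motifs, each counted on its own whether or not sites overlapped. The E-box CACGTG, bound by Myc, Usf and Tfe factors, was found in 10 of the 39 genes (25.6%), against 8.09% of all genes and 12.35% of tested genes. The ETS-type motif CCGGAAG was found in 15 (38.5%), against 9.93% of all genes and 22.3% of tested genes, and Eif1b, Eif5a and Eif5a2 held both. TGATGNAA, the C/EBP-ATF type, was found in Eif2s3x only (2.56%), against 4.51% of all genes and 2.74% of tested genes. A match describes the letters and is not a bound site. The first 4 lines below show the E-box, and the last 3 the ETS motif as it reads on the gene's strand, in capitals within 20 bases on each side.
Eif3f, chr7:108934327-108934372, plus strand: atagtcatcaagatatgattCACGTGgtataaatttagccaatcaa
Eif3k, chr7:28981907-28981952, minus strand: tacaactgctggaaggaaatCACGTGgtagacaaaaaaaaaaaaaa
Eif4a1, chr11:69672587-69672632, minus strand: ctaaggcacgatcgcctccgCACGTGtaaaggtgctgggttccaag
Eif4g1, chr16:20672653-20672698, plus strand: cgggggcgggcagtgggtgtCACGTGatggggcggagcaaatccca
Eif3d, chr15:77970868-77970914, minus strand: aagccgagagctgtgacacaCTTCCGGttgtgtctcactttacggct
Eif3l, chr15:79075168-79075214, plus strand: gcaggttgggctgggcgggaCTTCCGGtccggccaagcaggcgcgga
Eif3m, chr2:105017056-105017102, minus strand: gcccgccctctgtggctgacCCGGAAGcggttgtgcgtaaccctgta
Of the 4 E-box genes printed, Eif3f, Eif3k and Eif4a1 were called lower, and Eif4g1 was not called. In all, 7 of the 9 tested E-box genes and 10 of the 14 tested ETS-motif genes were called lower and none higher, beside 27 lower and 2 higher among the 37 tested members with a promoter entry.

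Most initiation factor genes were slightly lower in MHCII_hi, as was the median gene. Of the 51 genes, 47 averaged at least 1 FPKM over the 6 libraries and were tested. With limma on log2(FPKM + 1), adjusted over all 12037 tested genes at 0.05, 31 members were lower in MHCII_hi, where 40.6% of all tested genes were lower. Only Eif1, Eif4ebp1 and Eif4g3 were higher (3 members), where 20.4% of all tested genes were higher, and 13 passed in neither direction. The 2 groups of libraries did not overlap for 36 members that were lower and 3 that were higher, against 45.0% and 22.6% of all tested genes. Over the tested members the median log2 fold change was −0.15, and that of all tested genes −0.12. The 51 genes summed to 2368 ± 11.8 FPKM in MHCII_hi and 2675 ± 9.51 FPKM in MHCII_lo (SD, n = 3 each), which is 0.686 ± 0.00574% of the summed FPKM in MHCII_hi and 0.816 ± 0.00253% of it in MHCII_lo. By mean FPKM over the 6 libraries, Eif5a (321.01), Eif1 (227.9), Eif4a1 (199.4), Eif3h (133.7) and Eif4g2 (122.3) were the most abundant members, and Eif2b3 (3.08) the least abundant that was tested.

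**Figure D1:**
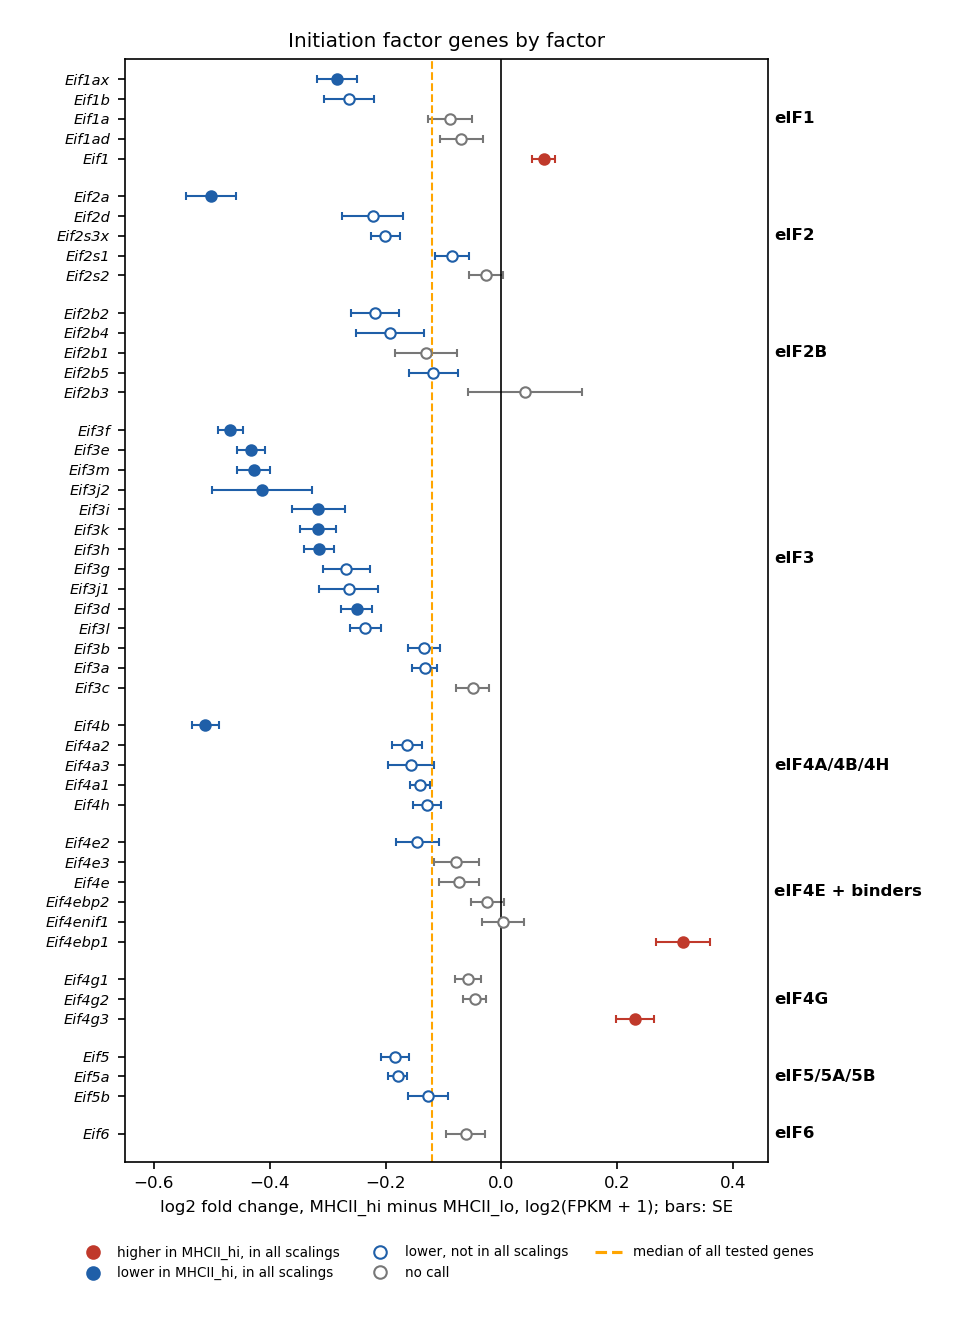
Log2 fold change of each of the 47 tested initiation factor genes (MHCII_hi minus MHCII_lo, on log2(FPKM + 1), horizontal axis) with its standard error, grouped by factor down the page; filled points kept their call under each of the 4 other scalings tried, open points did not or had no call, and the dashed line is the median of all tested genes at −0.12. Most eIF3 subunits, Eif4b and Eif2a lie left of the dashed line, and Eif4ebp1, Eif4g3 and Eif1 right of 0.

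Because calls on FPKM depend on how libraries are scaled, each was recomputed under 4 other scalings: quantile normalization, centring each library on its median, median-ratio scaling, and a total that leaves out 211 neutrophil-type genes (the markers and genes at least 4-fold higher in MHCII_hi). Apart from the markers, the 211 genes were drawn from this same contrast, and only where higher in MHCII_hi. Leaving them out therefore raises MHCII_hi values relative to MHCII_lo by construction. Neutrophil-type is only a name for this list, and the cell type of its genes was not tested. All 3 higher calls and 11 of the 31 lower calls kept direction and threshold under all 4 scalings. The 11 were Eif1ax, Eif2a, Eif3d, Eif3e, Eif3f, Eif3h, Eif3i, Eif3j2, Eif3k, Eif3m and Eif4b. Members called lower numbered 31 on the deposited values, 26 after quantile normalization, 22 after centring, 16 after median-ratio scaling and 11 with the total without neutrophil-type genes. The share of all tested genes called lower was smaller too, at 40.6, 33.4, 30.6, 25.9 and 22.8% in the same order. Members called higher numbered 3, 3, 3, 9 and 10 in that order, where 20.4, 23.4, 24.8, 28.2 and 30.5% of all tested genes were higher. Among all calls, the share that was higher was 33.4% on the deposited values, 41.2% after quantile normalization, 44.8% after centring, 52.1% after median-ratio scaling and 57.3% with that total. The median of all tested genes was −0.066, −0.047, −0.011 and 0.017 under the 4 scalings in that order.

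eIF3, the scaffold of the small subunit, was the factor with the lowest median change. Of its 14 genes, 13 were called lower and none higher, where 40.6% of all tested genes were lower and 20.4% higher. The median log2 fold change was −0.29, which is −0.17 relative to the median gene. Summed over subunits, eIF3 mRNA was at 692.4 ± 4.62 FPKM in MHCII_hi and 838.2 ± 2.27 FPKM in MHCII_lo (SD, n = 3 each), a ratio of 0.826. The median stayed below 0 under all 4 other scalings, at −0.27 after quantile normalization, −0.22 after centring, −0.16 after median-ratio scaling and −0.13 with the total without neutrophil-type genes. Calls lower then numbered 13, 11, 10 and 8 of 14, where 33.4, 30.6, 25.9 and 22.8% of all tested genes were lower.

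The subunits with the smallest p were Eif3f, Eif3e, Eif3m and Eif3h. Eif3f (ENSMUSG00000031029.6, chr7:108934417-108942951, plus strand), whose start carries the C and T run printed above, was at 72.2, 71.0 and 70.8 FPKM in the MHCII_hi libraries, against 97.4, 99.0 and 101 FPKM in the MHCII_lo libraries (log2 fold change −0.47, SE 0.0224, limma adjusted p = 4.02e-06). Eif3e (chr15:43250058-43282719, minus strand), known as a site of viral integration in mouse mammary tumours, was at 34.0, 34.0 and 33.8 FPKM in the MHCII_hi libraries, against 45.4, 46.7 and 46.3 FPKM in the MHCII_lo libraries (log2 fold change −0.43, SE 0.0241, limma adjusted p = 8.83e-06). Every MHCII_hi library was below every MHCII_lo library for both genes, with a gap many times the spread within a group. Eif3m (chr2:104999656-105017080, minus strand) was at 45.9, 44.8 and 46.8 FPKM in the MHCII_hi libraries, against 62.7, 60.4 and 62.8 FPKM in the MHCII_lo libraries (log2 fold change −0.43, SE 0.0287, limma adjusted p = 2.26e-05). Eif3h (chr15:51786558-51865523, minus strand), the most abundant eIF3 mRNA per length, was at 115, 120.3 and 122 FPKM in the MHCII_hi libraries, against 149, 149 and 147 FPKM in the MHCII_lo libraries (log2 fold change −0.32, SE 0.0255, limma adjusted p = 5.58e-05). The groups did not overlap for either. Eif3e has a copy, Eif3s6-ps2, that matches 88.7% of its transcript and was listed at 1.26 FPKM in MHCII_hi and 2.19 FPKM in MHCII_lo, and Eif3m a copy, Gm7658, that matches 87.7% and was listed at 3.72 FPKM in MHCII_hi and 4.52 FPKM in MHCII_lo, so both values carry some uncertainty. Eif3h matches AC122253.2 over 81.5% of its transcript, a gene with no value listed, so its own value is uncertain too. All 4 subunits kept their call under each of the 16 alternatives tried.

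By module of the complex, changes are given without a test, and the modules overlapped, with Eif3e outside the subunits f, h and m at −0.43 and Eif3h within them at −0.32. The subunits f, h and m, which sit together at the edge of the complex, had a median log2 fold change of −0.43 and were all called lower. The subunits a, b, g and i had a median of −0.20 with 4 of 4 lower. For c, d, e, k and l the median was −0.25 with 4 of 5 lower, where 40.6% of all tested genes were lower. After median-ratio scaling the medians kept this order. They were −0.30 for f, h and m, −0.12 for c, d, e, k and l and −0.072 for a, b, g and i. Calls lower then were 3 of 3, 4 of 5 and 2 of 4, where 25.9% of all tested genes were lower. Eif3c was the member that was not called, at 90.3 ± 0.696 FPKM in MHCII_hi and 93.6 ± 3.03 FPKM in MHCII_lo (SD, n = 3 each; limma adjusted p = 0.158), and it was called higher after median-ratio scaling (log2 fold change 0.081) and with the total without neutrophil-type genes (0.11). Eif3a and Eif3b, the subunits that organize the core, changed little (−0.13 and −0.13) and lost their calls under both of these scalings and after centring. Eif3i (−0.32), Eif3k (−0.32), Eif3g (−0.27), Eif3d (−0.25) and Eif3l (−0.23) lay between, all called lower, and Eif3g and Eif3l lost the call with the total without neutrophil-type genes. Within each library, Eif3f stood at 0.790 ± 0.0112 of the Eif3c level in MHCII_hi and 1.06 ± 0.0472 of it in MHCII_lo (SD, n = 3 each). This ratio and the others within libraries that follow were chosen after the values were seen and carry no test.

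eIF3j, a loosely bound subunit, is encoded by 2 mouse genes that cannot be told apart well. Eif3j2 averaged 9.02 ± 0.859 FPKM in MHCII_hi and 12.4 ± 1.21 FPKM in MHCII_lo (SD, n = 3 each; log2 fold change −0.41, SE 0.0860, limma adjusted p = 0.00529), and Eif3j1 averaged 17.0 ± 1.18 FPKM in MHCII_hi and 20.6 ± 0.317 FPKM in MHCII_lo (SD, n = 3 each; log2 fold change −0.26, SE 0.0512, limma adjusted p = 0.00383). The whole Eif3j2 transcript matches Eif3j1 at 99.4% identity, so fragments may have been split between them and both values are uncertain. Eif3j1 lost its call after median-ratio scaling (limma adjusted p = 0.0547) and with the total without neutrophil-type genes (0.116). Eif3j1 also shares 19.0% of its exon bases with Spg11 on the opposite strand, and Eif3d 43.3% with the antisense gene Gm17638, which averaged 0.377 FPKM in MHCII_hi and 0.363 FPKM in MHCII_lo. Exons on the opposite strand also overlap Eif5b (Rev1, 16.9% of exon bases), Eif1ad (Banf1, 15.3%), Eif1b (D830035M03Rik, 12.7%) and Eif2b4 (Snx17, 7.85%). The library kit was stranded, but the sources do not state if strand was used in the quantification. Reads of such partners may therefore not have been told apart, and this was not tested.

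**Figure D2:**
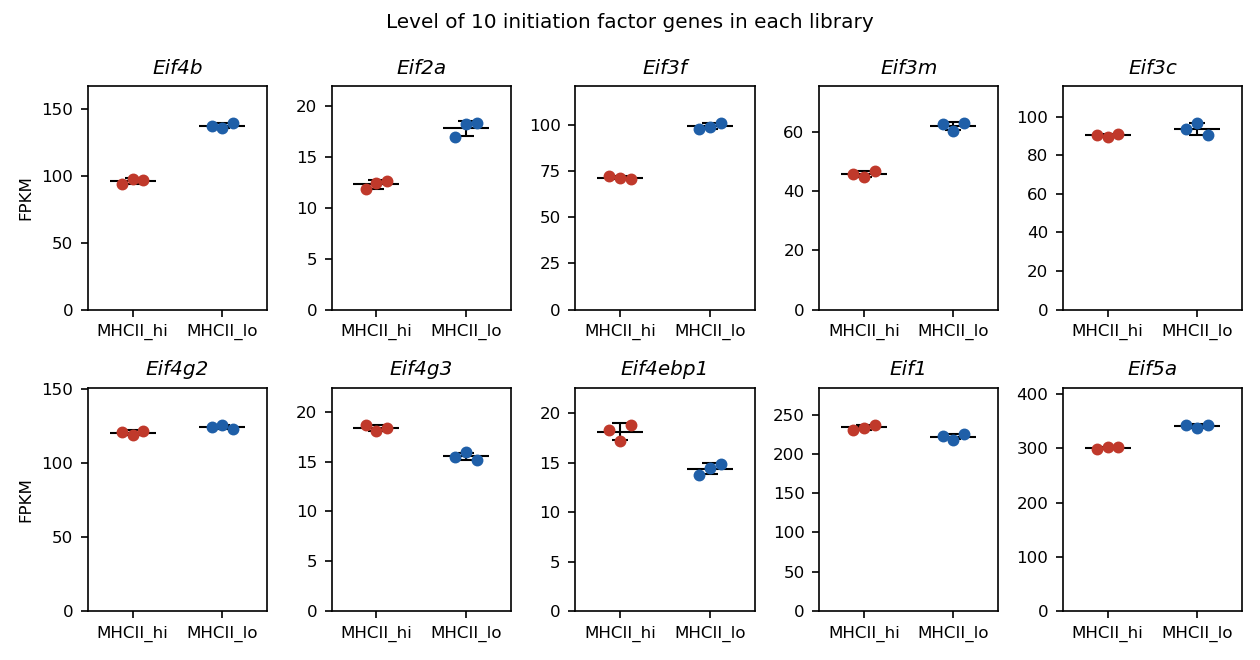
Deposited FPKM of 10 initiation factor genes in each library, MHCII_hi left and MHCII_lo right, with the mean as a bar and every axis starting at 0. For Eif4b, Eif2a, Eif3f and Eif3m the MHCII_hi libraries lie well below the MHCII_lo libraries, for Eif4g3 and Eif4ebp1 they lie above them, for Eif1 they lie above them by a small gap, and for Eif3c the groups overlap.

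Among the factors of the eIF4A helicase, Eif4b fell most. Eif4b encodes eIF4B, an RNA-binding stimulator of the helicase that mTORC1 signalling phosphorylates through S6 kinase. Eif4b (ENSMUSG00000058655.9, chr15:102073773-102097173, plus strand) was at 94.0, 97.8 and 97.1 FPKM in the MHCII_hi libraries, against 137, 136 and 139.5 FPKM in the MHCII_lo libraries (log2 fold change −0.51, SE 0.0233, limma adjusted p = 3.16e-06), the lowest log2 fold change of the tested members. The gap between the groups was many times the spread within them, and the call held under all 16 alternatives. With a pseudocount of 0.1, Eif2a had a lower log2 fold change (−0.53) than Eif4b (−0.52). The helicase itself changed less. Eif4a1, the main helicase, was at 191, 189 and 188 FPKM in the MHCII_hi libraries, against 208, 208 and 211 FPKM in the MHCII_lo libraries (log2 fold change −0.14, SE 0.0172, limma adjusted p = 0.000432). Eif4a2, its close paralog, was at 83.1, 86.9 and 85.1 FPKM in the MHCII_hi libraries, against 95.8, 96.6 and 93.5 FPKM in the MHCII_lo libraries (log2 fold change −0.16, SE 0.0253, limma adjusted p = 0.00135). Eif4h, a smaller relative of eIF4B, was at 44.8, 44.1 and 44.8 FPKM in the MHCII_hi libraries, against 49.4, 49.0 and 47.9 FPKM in the MHCII_lo libraries (log2 fold change −0.13, SE 0.0242, limma adjusted p = 0.00343). For all 3, every MHCII_hi library was below every MHCII_lo library, as for 45.0% of all tested genes.

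These calls did not hold under every scaling. After median-ratio scaling Eif4a1 had an adjusted p of 0.686, Eif4a2 of 0.324 and Eif4h of 0.975 (limma), and with the total without neutrophil-type genes all 3 and Eif4a3 stood slightly above 0, at most 0.034. Eif4a3, the exon junction helicase, averaged 45.9 ± 2.45 FPKM in MHCII_hi and 51.2 ± 0.582 FPKM in MHCII_lo (SD, n = 3 each; log2 fold change −0.16, SE 0.0398, limma adjusted p = 0.0125). The Eif4a1 value is uncertain, since 68.7% of its transcript matches the pseudogene Eif4a-ps4 at 99.92% identity, and that gene was itself listed at 118.5 FPKM in MHCII_hi and 128.3 FPKM in MHCII_lo. Eif4a2 matches Gm2999 over 15.55% of its transcript, a gene listed at 18.5 FPKM in MHCII_hi and 24.5 FPKM in MHCII_lo. Eif4a3 matches Gm8994 over 95.7% of its transcript, so these values are uncertain too. The level of Eif4b within a library was 0.508 ± 0.0146 of that of Eif4a1 in MHCII_hi and 0.658 ± 0.00266 of it in MHCII_lo (SD, n = 3 each). Eif4a3l1 was listed at 0.02, 0.02 and 0 FPKM in MHCII_hi, against 0.08, 0.04 and 0 FPKM in MHCII_lo. Eif4a3l2 was listed at 0, 0.20 and 0.03 FPKM in MHCII_hi, against 0.21, 0.06 and 0.03 FPKM in MHCII_lo, and neither was tested.

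Among the cap-binding proteins and their binders the inhibitor Eif4ebp1 rose, Eif4e2 fell, and the other 4 tested genes were not called. Eif4ebp1 encodes 4E-BP1, which binds eIF4E and blocks eIF4G until mTORC1 phosphorylates it. Eif4ebp1 (ENSMUSG00000031490.6, chr8:27260329-27276674, plus strand) was at 18.3, 17.2 and 18.8 FPKM in the MHCII_hi libraries, against 13.8, 14.4 and 14.9 FPKM in the MHCII_lo libraries (log2 fold change 0.31, SE 0.0464, limma adjusted p = 0.00109). The lowest MHCII_hi library stood above the highest MHCII_lo library, and the call held under all 16 alternatives. Parts of its transcript, at most 16.5% for any gene, match other genes at 95% identity or more. Among these is Zc3h7a, listed at 20.9 FPKM in MHCII_hi and 20.6 FPKM in MHCII_lo, so the Eif4ebp1 value carries some uncertainty. Eif4e, the cap-binding protein, was at 17.2, 18.1 and 17.1 FPKM in the MHCII_hi libraries, against 18.3, 18.2 and 18.8 FPKM in the MHCII_lo libraries (log2 fold change −0.074, SE 0.0343, limma adjusted p = 0.102). Eif4e2, a relative that represses cap-dependent translation, was at 7.46, 7.08 and 7.10 FPKM in the MHCII_hi libraries, against 8.06, 8.13 and 8.05 FPKM in the MHCII_lo libraries (log2 fold change −0.15, SE 0.0378, limma adjusted p = 0.0139) and lost its call under all 4 other scalings. Eif4e3 was at 17.3, 18.6 and 17.3 FPKM in the MHCII_hi libraries, against 18.4, 18.8 and 19.1 FPKM in the MHCII_lo libraries (log2 fold change −0.078, SE 0.0387, limma adjusted p = 0.122), and it was called lower without MHCII_hi replicate 2 (limma adjusted p = 0.0417).

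Relative to the mRNA of Eif4e, that of the inhibitor was higher in MHCII_hi. Eif4ebp1 stood at 1.036 ± 0.0783 of the Eif4e level in MHCII_hi and 0.779 ± 0.0238 of it in MHCII_lo, and at 0.495 ± 0.0333 of the Eif4ebp2 level in MHCII_hi and 0.386 ± 0.0214 of it in MHCII_lo (SD, n = 3 each). The Eif4e value carries some uncertainty, since 13.1% of its transcript matches Gm7327 at 98.6% identity. Gm7327 was listed at 7.15 FPKM in MHCII_hi and 6.58 FPKM in MHCII_lo. Eif4ebp2, the second 4E-binding protein, averaged 36.6 ± 0.765 FPKM in MHCII_hi and 37.2 ± 0.678 FPKM in MHCII_lo (SD, n = 3 each; limma adjusted p = 0.482). Eif4enif1, which carries eIF4E to the nucleus and to P-bodies, averaged 14.3 ± 0.251 FPKM in MHCII_hi and 14.3 ± 0.467 FPKM in MHCII_lo (SD, n = 3 each; limma adjusted p = 0.962). Both were called higher after median-ratio scaling and with the total without neutrophil-type genes. Eif4ebp3, the third such protein, was below the limit at 0.33, 0.48 and 0.48 FPKM in MHCII_hi, against 0.96, 0.50 and 0.47 FPKM in MHCII_lo.

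Among the 3 eIF4G scaffolds, Eif4g3 was higher. Eif4g3 (ENSMUSG00000028760.16, chr4:137993022-138208508, plus strand), the second full-length scaffold that joins eIF4E to eIF3, was at 18.7, 18.1 and 18.3 FPKM in the MHCII_hi libraries, against 15.4, 15.9 and 15.2 FPKM in the MHCII_lo libraries (log2 fold change 0.23, SE 0.0325, limma adjusted p = 0.000858). Eif4g1, the main scaffold, was at 55.4, 55.8 and 54.4 FPKM in the MHCII_hi libraries, against 57.1, 57.4 and 58.0 FPKM in the MHCII_lo libraries (log2 fold change −0.058, SE 0.0225, limma adjusted p = 0.0592). Eif4g2, which lacks the eIF4E-binding part and serves cap-independent initiation, was at 121, 119 and 122 FPKM in the MHCII_hi libraries, against 124, 126 and 123 FPKM in the MHCII_lo libraries (log2 fold change −0.046, SE 0.0203, limma adjusted p = 0.0873). The groups did not overlap for any of the 3, though Eif4g1 and Eif4g2 were not called. Of all tested genes, 45.0% were lower and 22.6% higher without overlap. Eif4g1 and Eif4g2 were above 0 after centring. Both were called higher after median-ratio scaling (log2 fold changes 0.071 and 0.085) and with the total without neutrophil-type genes (0.10 and 0.12). Eif4g3 stood at 0.333 ± 0.00771 of the Eif4g1 level in MHCII_hi and 0.270 ± 0.00755 of it in MHCII_lo (SD, n = 3 each). The median over the eIF4G genes was −0.046 on the deposited values and 0.12 with that total, so no direction is given for the group.

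Among eIF2 and the proteins named with it, Eif2a fell most. Eif2a encodes eIF2A, a separate protein that can deliver the initiator tRNA and is not a subunit of eIF2. Eif2a (ENSMUSG00000027810.14, chr3:58525821-58557501, plus strand) was at 11.8, 12.4 and 12.7 FPKM in the MHCII_hi libraries, against 16.9, 18.2 and 18.3 FPKM in the MHCII_lo libraries (log2 fold change −0.50, SE 0.0434, limma adjusted p = 7.92e-05). The groups did not overlap, and the call held under all 16 alternatives. Of the true subunits, Eif2s3x, the gamma subunit on the X chromosome, was at 42.0, 40.9 and 41.2 FPKM in the MHCII_hi libraries, against 47.8, 47.0 and 48.4 FPKM in the MHCII_lo libraries (log2 fold change −0.20, SE 0.0250, limma adjusted p = 0.000464). Eif2s1, the alpha subunit that the stress kinases phosphorylate, was at 24.6, 24.3 and 23.6 FPKM in the MHCII_hi libraries, against 25.5, 26.0 and 25.6 FPKM in the MHCII_lo libraries (log2 fold change −0.086, SE 0.0289, limma adjusted p = 0.0375). Eif2d, which serves re-initiation and recycling, was at 4.28, 4.58 and 4.69 FPKM in the MHCII_hi libraries, against 5.58, 5.15 and 5.58 FPKM in the MHCII_lo libraries (log2 fold change −0.22, SE 0.0525, limma adjusted p = 0.0091). No MHCII_hi library reached an MHCII_lo library for these genes, as held for 45.0% of all tested genes.

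The subunits of eIF2 did not move by equal amounts. Eif2s2, the beta subunit, averaged 21.4 ± 0.286 FPKM in MHCII_hi and 21.8 ± 0.450 FPKM in MHCII_lo (SD, n = 3 each; limma adjusted p = 0.474) and was above 0 under all 4 other scalings, called higher in 2 of them. Its transcript matches Gm9892 at 99.5% identity over 39.0% of its length, and that gene was listed at 17.9 FPKM in MHCII_hi and 17.4 FPKM in MHCII_lo, so its value is uncertain. The Eif2s3x value carries some uncertainty too, with 37.0% of its transcript matching Gm2223 at 100% identity. Gm2223 was listed at 3.81 FPKM in MHCII_hi and 4.87 FPKM in MHCII_lo. The level of Eif2a within a library was 0.574 ± 0.0167 of that of Eif2s2 in MHCII_hi and 0.816 ± 0.0486 of it in MHCII_lo. The Eif2s1 call was lost without any of the MHCII_lo libraries and without MHCII_hi replicates 2 and 3 (limma adjusted p 0.0677 to 0.111), and after each of the 4 other scalings, with a log2 fold change of 0.041 after median-ratio scaling. Eif2s3x lost its call with the total without neutrophil-type genes (0.216), and Eif2d with that total (0.220) and after median-ratio scaling (0.111).

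eIF2B, the exchange factor that reloads eIF2 with GTP, was called lower in 3 of 5 subunits, where 40.6% of all tested genes were lower. Its median of −0.13 was near that of all genes. Eif2b2, a regulatory subunit, was at 21.0, 20.7 and 19.2 FPKM in the MHCII_hi libraries, against 23.0, 24.2 and 24.0 FPKM in the MHCII_lo libraries (log2 fold change −0.22, SE 0.0414, limma adjusted p = 0.00348). Eif2b4, another regulatory subunit, was at 9.66, 8.77 and 8.86 FPKM in the MHCII_hi libraries, against 9.77, 10.7 and 11.1 FPKM in the MHCII_lo libraries (log2 fold change −0.19, SE 0.0588, limma adjusted p = 0.0261). Eif2b5, the catalytic subunit, was at 20.1, 18.2 and 19.5 FPKM in the MHCII_hi libraries, against 21.1, 21.2 and 20.5 FPKM in the MHCII_lo libraries (log2 fold change −0.12, SE 0.0422, limma adjusted p = 0.0469). These 3 were lower in every MHCII_hi library, as were 45.0% of all tested genes. None of the 3 kept its call under all scalings, and after median-ratio scaling no eIF2B gene was called. Eif2b1, the third regulatory subunit, was at 13.0, 14.4 and 13.1 FPKM in the MHCII_hi libraries, against 14.0, 15.3 and 15.2 FPKM in the MHCII_lo libraries (log2 fold change −0.13, SE 0.0536, limma adjusted p = 0.0718), and the groups overlapped. The Eif2b4 call was lost without MHCII_lo replicates 2 or 3 or MHCII_hi replicates 2 or 3 (limma adjusted p 0.0744 to 0.0812). The Eif2b5 call was lost without any library other than MHCII_hi replicate 1 (0.0635 to 0.119). Eif2b1 was called lower without MHCII_lo replicate 1 (0.0412) or MHCII_hi replicate 2 (0.0274). Eif2b3 averaged 3.13 ± 0.165 FPKM in MHCII_hi and 3.03 ± 0.505 FPKM in MHCII_lo (SD, n = 3 each; limma adjusted p = 0.736).

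The eIF1 genes moved in both directions, and their sum stayed level at 315.2 ± 3.26 FPKM in MHCII_hi and 315.4 ± 4.63 FPKM in MHCII_lo (SD, n = 3 each). Eif1 (ENSMUSG00000035530.13, chr11:100319885-100322096, plus strand), which guards start codon choice, was at 231, 233 and 237 FPKM in the MHCII_hi libraries, against 223, 218 and 226 FPKM in the MHCII_lo libraries (log2 fold change 0.073, SE 0.0199, limma adjusted p = 0.017). The groups did not overlap, but the gap was small, and the call was lost without MHCII_lo replicate 2 (limma adjusted p = 0.0566) or MHCII_hi replicate 3 (0.0579). Its closest relative Eif1b was at 27.7, 27.1 and 25.6 FPKM in the MHCII_hi libraries, against 31.4, 31.7 and 33.9 FPKM in the MHCII_lo libraries (log2 fold change −0.26, SE 0.0437, limma adjusted p = 0.00188). Within a library Eif1b stood at 0.115 ± 0.00621 of Eif1 in MHCII_hi and 0.146 ± 0.00478 of it in MHCII_lo. Part of the Eif1 transcript (49.8%) matches Emd at 96.7% identity and a processed copy, Gm10157, at 98.25% over 25.9%, so its value is uncertain.

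eIF1A is encoded by an X-linked gene and by an autosomal one. Eif1ax, the X-linked gene, was at 16.6, 17.1 and 17.6 FPKM in the MHCII_hi libraries, against 20.9, 21.5 and 20.6 FPKM in the MHCII_lo libraries (log2 fold change −0.28, SE 0.0343, limma adjusted p = 0.000407). Eif1a was at 19.6, 19.9 and 21.1 FPKM in the MHCII_hi libraries, against 21.7, 21.8 and 21.1 FPKM in the MHCII_lo libraries (log2 fold change −0.088, SE 0.0376, limma adjusted p = 0.0797), with overlapping groups. Eif1ax kept its call under all 16 alternatives, while Eif1a was called lower without MHCII_hi replicate 3 (limma adjusted p = 0.0300) and was above 0 after median-ratio scaling. Eif1ax stood at 0.845 ± 0.0133 of Eif1a in MHCII_hi and 0.975 ± 0.0104 of it in MHCII_lo (SD, n = 3 each). Eif1b lost its call with the total without neutrophil-type genes (0.0812). Eif1ad, named for an eIF1A-like domain, averaged 17.5 ± 0.164 FPKM in MHCII_hi and 18.4 ± 0.770 FPKM in MHCII_lo (SD, n = 3 each; limma adjusted p = 0.147).

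The late factors were lower by modest amounts, with a median of −0.18 over the 3 tested eIF5 genes, beside −0.12 for all tested genes. Eif5a (ENSMUSG00000078812.10, chr11:69916714-69921958, minus strand) encodes the hypusinated protein that helps ribosomes through difficult peptide bonds, and it was at 299, 303 and 302 FPKM in the MHCII_hi libraries, against 343, 336 and 343 FPKM in the MHCII_lo libraries (log2 fold change −0.18, SE 0.0161, limma adjusted p = 9.38e-05). Eif5, which triggers GTP hydrolysis by eIF2, was at 84.3, 88.3 and 86.5 FPKM in the MHCII_hi libraries, against 97.2, 99.1 and 98.4 FPKM in the MHCII_lo libraries (log2 fold change −0.18, SE 0.0241, limma adjusted p = 0.000592). Eif5b, the GTPase of subunit joining, was at 12.7, 12.9 and 13.2 FPKM in the MHCII_hi libraries, against 13.8, 14.4 and 14.4 FPKM in the MHCII_lo libraries (log2 fold change −0.13, SE 0.0346, limma adjusted p = 0.0169). All 3 were lower in every MHCII_hi library, as were 45.0% of all tested genes. With the total without neutrophil-type genes none of the 3 was called (limma adjusted p = 0.503 for Eif5a and 0.522 for Eif5). Eif5b was lost after all 4 other scalings, without MHCII_lo replicates 2 (0.0547) or 3 (0.0541) and without MHCII_hi replicate 1 (0.0525). Eif5a2, the second eIF5A gene, was below the limit at 1.20, 0.72 and 0.93 FPKM in MHCII_hi, against 1.19, 1.13 and 0.66 FPKM in MHCII_lo. Eif6, which keeps free large subunits from joining, was at 23.2, 23.7 and 22.2 FPKM in the MHCII_hi libraries, against 24.4, 23.8 and 24.1 FPKM in the MHCII_lo libraries (log2 fold change −0.062, SE 0.0333, limma adjusted p = 0.148). Its groups did not overlap, it was not called on the deposited values, and it was called higher with that total (log2 fold change 0.097).

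**Figure D3:**
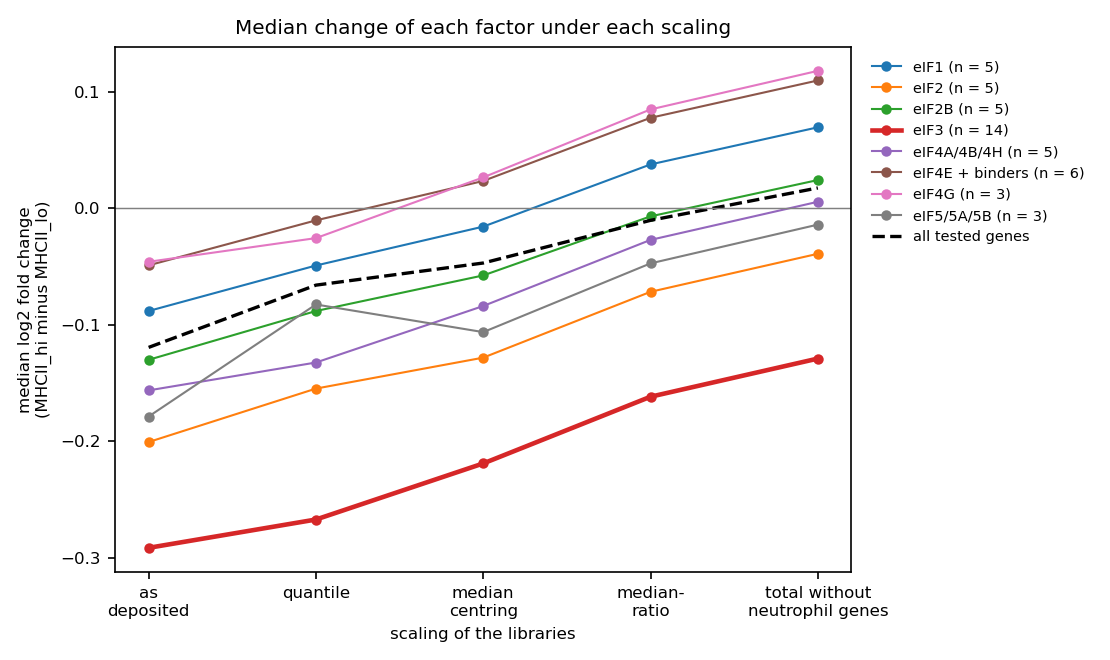
Median log2 fold change (MHCII_hi minus MHCII_lo) over the tested members of each factor with at least 3 such genes, and of all tested genes (dashed), under the deposited values and the 4 other scalings. eIF3 is below 0 under all 5, from −0.29 to −0.13, whereas eIF4E with its binding proteins and eIF4G pass from −0.049 and −0.046 on the deposited values to 0.11 and 0.12 with the total without neutrophil-type genes.

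Over factors, medians that stayed below 0 under the deposited values and all 4 other scalings were those of eIF2, eIF3 and eIF5. Those of eIF1, eIF2B, the eIF4A group, eIF4E, eIF4G and eIF6 changed sign under at least 1 scaling. The eIF2 median takes in Eif2a and Eif2d. Of the eIF2 subunits themselves, Eif2s1 and Eif2s2 were above 0 after median-ratio scaling (0.041 and 0.10). They were also above 0 with the total without neutrophil-type genes (0.073 and 0.13). Eif2s3x was below 0 in both (−0.072 and −0.039). The sum over eIF2 genes was 103.7 ± 0.316 FPKM in MHCII_hi and 118.5 ± 1.03 FPKM in MHCII_lo, and the sum over eIF4A, eIF4B and eIF4H genes was 461.5 ± 3.74 FPKM in MHCII_hi and 542.2 ± 1.79 FPKM in MHCII_lo. Sums over eIF4E with its binding proteins stood at 111.9 ± 1.09 FPKM in MHCII_hi and 111.9 ± 0.525 FPKM in MHCII_lo (SD, n = 3 each).

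Genes that act around the initiation factors were read from the same fit in 7 lists of 55 genes, all of them tested. Of these 55, 29 were lower and 5 higher in MHCII_hi, with a median of −0.17, where 40.6% of all tested genes were lower and 20.4% higher, with a median of −0.12. Lower calls numbered 19 after quantile normalization, 19 after centring, 16 after median-ratio scaling and 14 with the total without neutrophil-type genes, and higher calls 8, 8, 9 and 11 in the same order. The elongation and termination factors had 8 of 10 lower and none higher, with a median log2 fold change of −0.32 that remained between −0.24 and −0.16 under the other scalings. Calls lower then numbered 6, 7, 6 and 6 of 10 in the order just given. Eef2, the translocase of the elongating ribosome, was at 533, 538 and 533 FPKM in the MHCII_hi libraries, against 759, 756 and 764 FPKM in the MHCII_lo libraries (log2 fold change −0.51, SE 0.0128, limma adjusted p = 2.2e-07). Eef1a1, which brings aminoacyl-tRNA to it, was at 2655, 2697 and 2697 FPKM in the MHCII_hi libraries, against 3398, 3454 and 3419 FPKM in the MHCII_lo libraries (log2 fold change −0.35, SE 0.0118, limma adjusted p = 7.4e-07), and it missed the threshold after quantile normalization (limma adjusted p = 0.05001). Both were lower in every MHCII_hi library.

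Of the 13 cap, poly(A) and helicase partners, 8 were lower and 2 higher, where 40.6% of all tested genes were lower and 20.4% higher. The median was −0.15, and 0.013 with the total without neutrophil-type genes. In the order of scalings above, lower calls numbered 6, 5, 4 and 3 and higher calls 3, 3, 4 and 5, so no direction is given for this list. Pdcd4, which sequesters eIF4A, was at 32.3, 32.8 and 32.3 FPKM in the MHCII_hi libraries, against 57.4, 55.1 and 57.1 FPKM in the MHCII_lo libraries (log2 fold change −0.78, SE 0.0262, limma adjusted p = 7.4e-07). Pabpc1, the poly(A)-binding protein that meets eIF4G, was at 209.8, 210.3 and 208 FPKM in the MHCII_hi libraries, against 272, 272 and 271 FPKM in the MHCII_lo libraries (log2 fold change −0.37, SE 0.0150, limma adjusted p = 1.76e-06). Both kept their calls under all scalings. The 2 higher members were Dhx29, a helicase for structured leaders, and Ncbp1, the large nuclear cap-binding subunit, named after their values were seen.

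Around eIF2 phosphorylation, 3 of 10 genes were lower and 1 higher, with a median of −0.033 that was above 0 under all 4 other scalings. The share of lower calls was below the 40.6% of all tested genes, and 3 genes were higher and 2 lower under 3 of the scalings, against 4 higher and 1 lower with the total without neutrophil-type genes. Ppp1r15a, the stress-induced subunit that directs dephosphorylation of eIF2 alpha, was at 33.8, 35.2 and 34.7 FPKM in the MHCII_hi libraries, against 59.2, 58.1 and 60.4 FPKM in the MHCII_lo libraries (log2 fold change −0.76, SE 0.0279, limma adjusted p = 1.17e-06). Atf4, the transcription factor translated when eIF2 is phosphorylated, was at 128, 132 and 129 FPKM in the MHCII_hi libraries, against 146, 149 and 149 FPKM in the MHCII_lo libraries (log2 fold change −0.19, SE 0.0201, limma adjusted p = 0.000208) and lost its call with the total without neutrophil-type genes. The gene called higher was Ppp1r15b, the constitutive partner of Ppp1r15a, named after its value was seen.

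The mTORC1 list had 3 of 12 lower and 2 higher, with a median of −0.10 that was slightly above 0 in 2 scalings. Both shares were below those of all tested genes, at 40.6% lower and 20.4% higher, and 2 genes were lower and 2 higher under each of the 4 other scalings. Mknk2, a kinase of eIF4E, was at 38.1, 37.3 and 38.5 FPKM in the MHCII_hi libraries, against 44.6, 45.1 and 46.5 FPKM in the MHCII_lo libraries (log2 fold change −0.25, SE 0.0278, limma adjusted p = 0.000264). Deptor, an inhibitor of mTOR, was at 3.11, 3.12 and 3.08 FPKM in the MHCII_hi libraries, against 4.24, 4.06 and 3.98 FPKM in the MHCII_lo libraries (log2 fold change −0.31, SE 0.0474, limma adjusted p = 0.00124). Groups did not overlap for either. The 2 higher genes, named after their values were seen, were Mlst8, an mTOR partner, and Mknk1, the other eIF4E kinase.

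Of 5 re-initiation and recycling genes 4 were lower on the deposited values (median −0.21), where 40.6% of all tested genes were lower. The number was 2 after quantile normalization or centring. It was 1 after median-ratio scaling or with the total without neutrophil-type genes, and with that total the median was −0.051. Denr and Mcts1 lost their calls under all 4 scalings. Bzw1 and Bzw2, mimics of eIF5, had the smallest p. Bzw1 was at 73.5, 75.4 and 75.0 FPKM in the MHCII_hi libraries, against 87.7, 87.5 and 86.9 FPKM in the MHCII_lo libraries (log2 fold change −0.23, SE 0.0207, limma adjusted p = 0.000104). Bzw2 was at 11.6, 12.3 and 11.8 FPKM in the MHCII_hi libraries, against 14.6, 13.2 and 15.2 FPKM in the MHCII_lo libraries (log2 fold change −0.25, SE 0.0551, limma adjusted p = 0.00704) and lost its call after median-ratio scaling (0.0911) and with the total without neutrophil-type genes (0.192). The enzymes that place hypusine on eIF5A were both called lower. Dohh was at 8.77, 9.01 and 9.0 FPKM in the MHCII_hi libraries, against 11.5, 11.4 and 11.9 FPKM in the MHCII_lo libraries (log2 fold change −0.34, SE 0.0354, limma adjusted p = 0.000187). Dhps was at 6.12, 6.49 and 6.34 FPKM in the MHCII_hi libraries, against 6.81, 7.67 and 6.98 FPKM in the MHCII_lo libraries (log2 fold change −0.16, SE 0.0524, limma adjusted p = 0.0377). The Dohh groups were well apart, whereas the Dhps call was lost under all 4 other scalings and without any library other than MHCII_lo replicate 1 (limma adjusted p 0.0556 to 0.104). Of 3 mitochondrial initiation genes 1 was lower. Mtfmt, which formylates the initiator tRNA, was at 3.61, 3.39 and 3.69 FPKM in the MHCII_hi libraries, against 4.48, 3.92 and 4.10 FPKM in the MHCII_lo libraries (log2 fold change −0.18, SE 0.0596, limma adjusted p = 0.0363), and its call was lost under all 4 other scalings and without any library other than MHCII_lo replicate 2 (0.0544 to 0.108). Mtif3, mitochondrial factor IF3, was at 1.62, 1.87 and 1.99 FPKM in the MHCII_hi libraries, against 2.35, 2.01 and 2.32 FPKM in the MHCII_lo libraries (log2 fold change −0.19, SE 0.0810, limma adjusted p = 0.078).

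**Figure D4:**
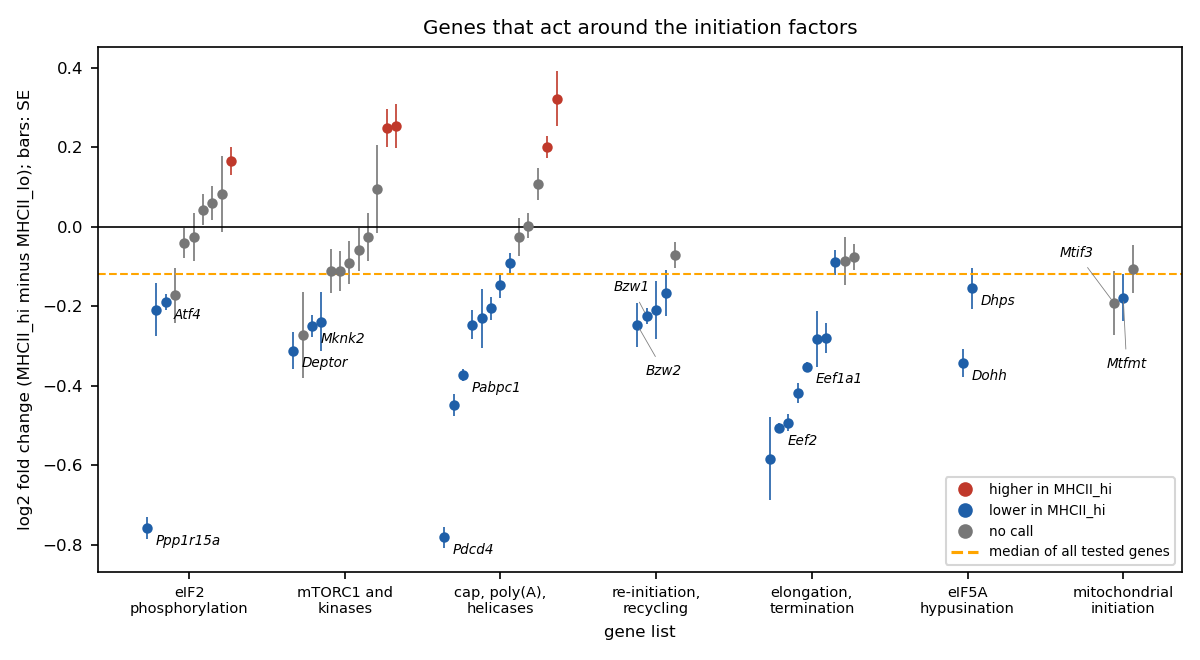
Log2 fold change (MHCII_hi minus MHCII_lo, on log2(FPKM + 1)) with its standard error for 55 genes around the initiation factors in 7 lists, coloured by call on the deposited values, with the median of all tested genes dashed at −0.12; the 2 genes of each list with the smallest p are named. Pdcd4 at −0.78 and Ppp1r15a at −0.76 lie lowest, and no elongation or termination gene lies above 0.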

How the data were processed

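RNA was extracted with a column kit and libraries were built with a stranded mRNA kit, per the labels' protocols. Trimming, alignment and quantification tools are listed as fastp, HISAT2 and StringTie, and the build as GRCm38 (mm10), per the submitters' processing notes, which give no versions. The authors deposited 1 table per library of 30803 gene rows, in FPKM, a unit inferred from the values and from StringTie, since no header names it. No step of 1 fragment could be read from low values, so depth is unknown and no counting interval is given; FPKM hold no counts, so no count model was used.

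A gene was tested where its mean over the 6 libraries was at least 1 FPKM (12037 genes). log2(FPKM + 1) was fitted on group alone with limma's trended variance (limma 3.58.1, R 4.3.3), and p-values were adjusted by Benjamini-Hochberg across the tested genes at 0.05; fold changes on this scale understate those of low genes. Where a symbol had several rows, the row with the highest mean was kept. The fit was also run on simulated data in which 200 of 12037 genes were changed. It recovered 29 of 50 genes changed 1.25-fold and 47 of 50 changed 2-fold, with 10 false calls among 172. A small change that is not called may therefore have been missed. Far more genes were called in the data than were changed in this simulation, so its error rates may not carry over. Near copies were sought with BLAST 2.17.0 in GENCODE M21 transcripts on GRCm38 (at least 95% identity over 10% of a transcript), which also gave gene positions for 49 members; promoters are RefSeq's on GRCm38.p6.

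In each factor, library values are given for the 4 tested members with the smallest p, and in each surrounding list the 2 genes with the smallest p are named. The members and lists were chosen with earlier results of these data known. The 16 alternatives comprise 4 scalings, 2 pseudocounts, 2 filters, a fit without the trend, a replicate block and each library left out in turn.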

Additional observations from a re-analysis of the deposited data

How the results depend on the processing

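Precision is limited by 3 libraries a group, and depth is unknown. Counts of members called were 9 higher and 16 lower after median-ratio scaling and 10 higher and 11 lower with the total without neutrophil-type genes, against 3 higher and 31 lower on the deposited values, and genes called lower over all those tested were 3123 and 2742 under these scalings, against 4883. For tested members the median log2 fold change was −0.15 on the deposited values, −0.16 with a pseudocount of 0.1, −0.13 with 5, −0.11 after quantile normalization, −0.073 after centring, −0.027 after median-ratio scaling and 0.0054 with the total without neutrophil-type genes. Leaving out each library in turn gave 2 to 3 members higher, 27 to 30 lower, 2234 to 2266 genes higher, 4338 to 4500 lower and a member median of −0.16 to −0.14, the lowest without MHCII_lo replicate 1. The calls of Eif1, Eif2s1 and Eif2b5 were also lost in a fit without the intensity trend (limma adjusted p 0.0985, 0.0666 and 0.0675), and those of Eif2b4 and Eif2b5 with no filter on low values (0.0586 and 0.0827). The cause of these changes was not tested.

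Same-numbered libraries deviated from their group means with correlations of −0.053 to −0.043 over 3 pairs, against 0.0042 to 0.041 over 6 pairs with different numbers, so the numbers were not taken to pair the samples, and no library correlated best with its own number. With the replicate block, 3 members were higher and 28 lower, and 2305 genes were higher and 4659 lower; Eif2s1, Eif2b4 and Eif2b5 were lost, with limma adjusted p 0.0706, 0.0650 and 0.0747.

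Log2 fold changes that changed sign after median-ratio scaling were those of Eif1a (0.037), Eif1ad (0.056), Eif2s1 (0.041), Eif2s2 (0.10), Eif2b5 (0.0083), Eif3c (0.081), Eif4h (0.0011), Eif4e (0.051), Eif4e3 (0.047), Eif4ebp2 (0.10), Eif4g1 (0.071), Eif4g2 (0.085) and Eif6 (0.065). After quantile normalization they were those of Eif2s2 (0.0054) and Eif4ebp2 (0.0048), and after centring those of Eif1ad (0.0030), Eif2s2 (0.046), Eif3c (0.023), Eif4ebp2 (0.048), Eif4g1 (0.014), Eif4g2 (0.026) and Eif6 (0.011). With the total without neutrophil-type genes they were those of Eif1a (0.069), Eif1ad (0.087), Eif2s1 (0.073), Eif2s2 (0.13), Eif2b1 (0.024), Eif2b5 (0.040), Eif3a (0.030), Eif3b (0.029), Eif3c (0.11), Eif4a1 (0.024), Eif4a2 (0.00049), Eif4a3 (0.0054), Eif4h (0.034), Eif4e (0.083), Eif4e2 (0.0011), Eif4e3 (0.079), Eif4ebp2 (0.14), Eif4g1 (0.10), Eif4g2 (0.12), Eif5b (0.027) and Eif6 (0.097). Leaving out MHCII_lo replicate 1 turned Eif2b3 to −0.061 and Eif4enif1 to −0.015, and Eif4enif1 was also below 0 without MHCII_lo replicate 3 (−0.0053) and without MHCII_hi replicate 1 (−0.011).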
